A study of Mus musculus with 4 samples.

Results

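The loci of 9 genes that govern survival and death of thymocytes were examined for called peaks of topoisomerase IIβ (TOP2B), out of 22342 protein-coding genes on chromosomes 1 to 19 and X of the mouse genome build mm9. The members were the anti-apoptotic *Bcl2l1* and *Mcl1*, the BH3-only genes *Bcl2l11*, *Bbc3* and *Pmaip1*, the effectors *Bax* and *Bak1*, the death receptor gene *Fas* and the stress sensor gene *Gadd45b*. A peak was assigned to a member when its centre lay inside the gene, as annotated in GENCODE M1, or within 50 kb of either end. The members' windows held 31 peaks, of which 5 came from the Novus list of 3564 peaks and 26 from the Santa Cruz list of 17754.

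TOP2B ChIPseq was carried out on freshly isolated, formaldehyde-fixed thymocytes of wild-type C57BL/6 mice of 4 to 6 weeks of age, with libraries made by ChIPmentation, in which a transposase adds the adapters to chromatin still on the beads. Each of the 4 libraries was made with another antibody: TOP2B (Santa Cruz), TOP2B (Novus Biologicals), TOP2A and rabbit IgG. Only the TOP2B peak lists were examined; TOP2A and IgG peaks are not analysed here. The cells were a suspension of the whole thymus, so that all stages of T-cell development could contribute to each list, though not equally. The authors describe double-positive cells as by far the largest thymocyte population. The identity of the cells cannot be checked from peak positions. With 1 library per antibody there was no replicate error, and the lists held no read numbers, heights or scores above 0, so that the depth behind a peak is unknown and peaks cannot be ranked.

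TOP2B relieves torsional stress in DNA by cutting both strands, passing another duplex through the gap and resealing it, and is known to lie at promoters, enhancers and the anchors of chromatin loops. Most thymocytes die in the thymus, by neglect or by negative selection, through the mitochondrial pathway of apoptosis. In that pathway BH3-only proteins bind and neutralise the anti-apoptotic members of the BCL2 family and set BAX and BAK free to permeabilise the outer mitochondrial membrane, whereas FAS starts caspase activation from the cell surface.

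The sequences of the common peaks, meaning peaks that shared at least 1 bp between the lists, and of the peak closest to a member's start are shown for 9 regions, because these stretches carry the description of *Bbc3*, *Bcl2l1*, *Bcl2l11*, *Bak1* and *Fas*. The closest peaks of *Mcl1* and *Bax* are not shown, since most of their bases are annotated as UTR. All were read from the plus strand of mm9, 5′ to 3′, without bases annotated as UTR. Capitals mark a match to the CTCF core, to the RUNX core TGTGGT, to the E-box CACGTG or to the GC box GGGCGG, which appears as CCGCCC when it lies on the minus strand.
Bbc3, bases shared by both antibodies' peaks at the Ccdc9 promoter, chr7:16871654-16871784: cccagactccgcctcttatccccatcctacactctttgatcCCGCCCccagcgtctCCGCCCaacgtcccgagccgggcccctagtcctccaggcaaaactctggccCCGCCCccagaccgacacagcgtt
Bbc3, Santa Cruz peak in the first kb of the gene, chr7:16895211-16895366: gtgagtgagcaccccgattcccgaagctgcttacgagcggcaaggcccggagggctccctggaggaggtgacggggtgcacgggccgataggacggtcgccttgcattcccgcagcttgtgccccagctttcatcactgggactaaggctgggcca
Bcl2l1, Santa Cruz peak in an intron of the gene, chr2:152642122-152642308: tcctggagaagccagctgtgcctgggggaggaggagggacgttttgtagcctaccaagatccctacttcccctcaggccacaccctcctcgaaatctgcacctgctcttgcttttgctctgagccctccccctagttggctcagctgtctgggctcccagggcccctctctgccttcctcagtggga
Bcl2l11, Santa Cruz peak upstream of the start, chr2:127948389-127948575: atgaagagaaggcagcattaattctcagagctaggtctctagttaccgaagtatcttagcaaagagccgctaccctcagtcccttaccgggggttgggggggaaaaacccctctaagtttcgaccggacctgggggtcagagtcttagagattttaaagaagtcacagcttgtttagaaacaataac
Bak1, bases shared by both antibodies' peaks at the Zbtb9 promoter, chr17:27109954-27110084: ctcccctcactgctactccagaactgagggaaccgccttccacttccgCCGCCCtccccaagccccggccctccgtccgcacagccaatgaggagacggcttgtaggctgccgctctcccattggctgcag
Bak1, bases shared by both antibodies' peaks in an intron of Ggnbp1, chr17:27118224-27118295: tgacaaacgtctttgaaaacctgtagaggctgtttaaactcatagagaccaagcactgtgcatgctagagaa
Bak1, Santa Cruz peak upstream of the start, chr17:27169864-27170050: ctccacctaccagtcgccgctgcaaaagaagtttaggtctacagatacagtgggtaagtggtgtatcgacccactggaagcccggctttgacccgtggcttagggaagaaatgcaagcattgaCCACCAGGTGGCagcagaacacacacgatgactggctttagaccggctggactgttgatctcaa
Fas, bases shared by both antibodies' peaks beyond the 3′ end, chr19:34408944-34409083: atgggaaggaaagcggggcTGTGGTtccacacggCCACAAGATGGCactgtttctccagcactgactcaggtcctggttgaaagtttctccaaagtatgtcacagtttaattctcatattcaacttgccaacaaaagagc
Fas, Santa Cruz peak at the start, chr19:34364972-34365148: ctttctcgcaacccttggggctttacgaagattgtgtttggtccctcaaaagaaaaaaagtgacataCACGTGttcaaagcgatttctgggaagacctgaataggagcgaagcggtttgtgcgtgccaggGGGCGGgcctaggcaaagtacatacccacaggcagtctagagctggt

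*Bbc3*, *Bak1* and *Fas* had peaks of both antibodies that overlapped, *Bax* had peaks of both that did not, *Bcl2l1*, *Mcl1* and *Bcl2l11* had Santa Cruz peaks only, and *Pmaip1* and *Gadd45b* had none. The map of called peaks around each gene shows that most peaks, and all Novus peaks, lay outside the member genes themselves. The genes were 2.11 to 64.4 kb long in windows of 102 to 164 kb, so most of each window was outside the gene. A Santa Cruz peak was present at 7 of 9 members (77.8%), beside 67.6% of all protein-coding genes. A Novus peak was present at 4 of 9 (44.4%), beside 27.6% of all protein-coding genes. A common peak was present at 3 of 9 (33.3%), where the share over all genes was 9.25%. Peaks of neither list were found at 2 of 9 members (22.2%), beside 29.3% of all genes. With 9 members a single gene moves such a share by 1 in 9, and the counts are given as descriptions, with no test.

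**Figure D1:**
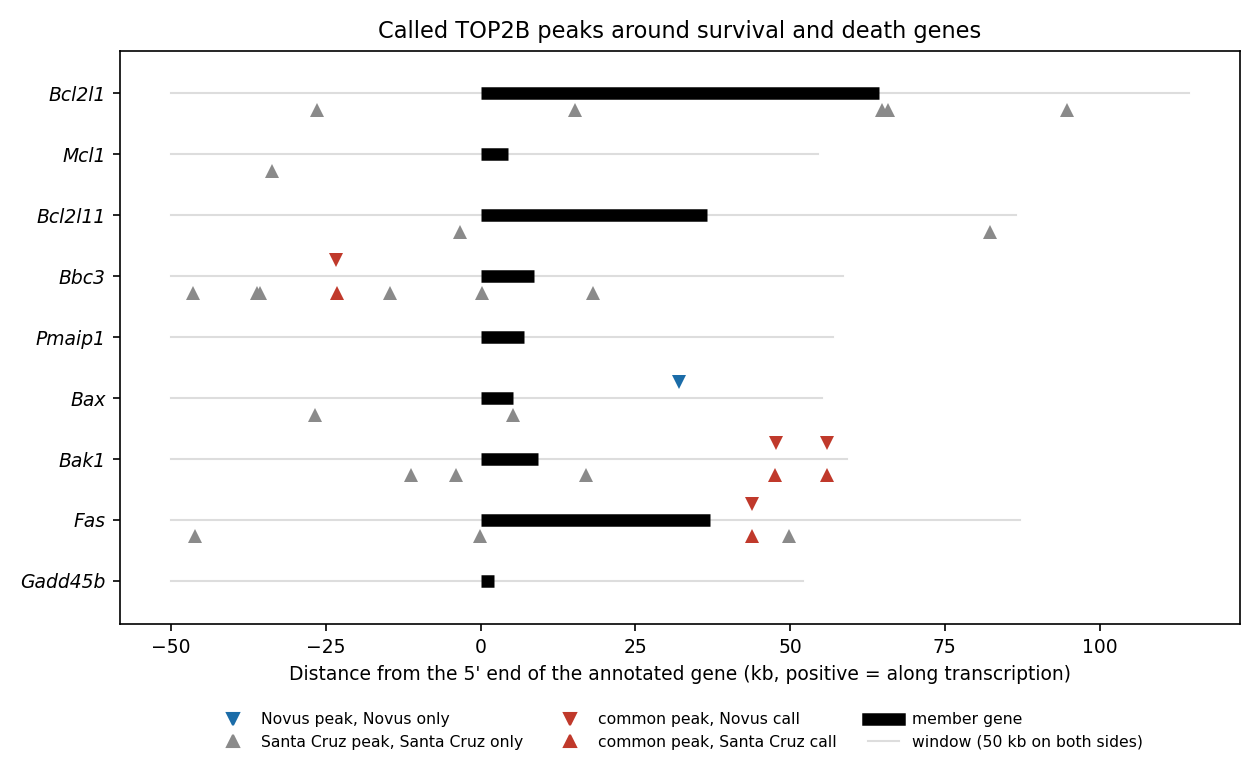
Called TOP2B peaks around the 9 genes, one row per gene, against the distance from the 5′ end of the annotated gene in kb, positive along transcription; downward triangles above a row are Novus peaks, upward triangles below it Santa Cruz peaks, red marks common peaks, black bars the genes and grey lines the windows of 50 kb on both sides. The 4 common peaks lie outside *Bbc3*, *Bak1* and *Fas*, 2 Santa Cruz peaks lie at the starts of *Bbc3* and *Fas*, and the rows of *Pmaip1* and *Gadd45b* are empty.

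Among the anti-apoptotic genes, *Bcl2l1*, which encodes BCL-XL, the main survival protein of double-positive thymocytes, had 5 Santa Cruz peaks and no Novus peak. The gene occupies chr2:152593052-152657464 on the minus strand and has 9 annotated coding starts. One peak was intronic, 13.8 kb into the gene from the closest start, and is the *Bcl2l1* sequence given above. A pair of peaks lay between genes just past the 3′ end, at chr2:152592554-152592740 and chr2:152591564-152591750, respectively 0.405 and 1.4 kb beyond it. Both of these were closest to the start of *Cox4i2*, a subunit of cytochrome c oxidase, at 11.8 and 10.8 kb. The other two were at neighbouring genes. At chr2:152562572-152562758, a peak lay 678 bp from the start of *Id1*, which encodes an inhibitor of E-protein transcription factors, and 93.4 kb from the closest *Bcl2l1* start. At chr2:152683763-152683949, a peak lay in an intron of the spindle assembly gene *Tpx2*, 26.4 kb upstream of *Bcl2l1*. The nearest Novus peak was 394 kb away. The starts of *Bcl2l1* themselves, from 152656046 to 152657464, had no peak of either list within 1 kb.

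*Mcl1*, whose product keeps thymocytes alive at several stages and is turned over rapidly, had a single peak in its window. It was a Santa Cruz peak at chr3:95428844-95429030, 33.7 kb upstream of the start of *Mcl1* (chr3:95462643-95467099, plus strand). That peak lay 35 bp from the start of *Ensa*, which encodes a regulator of protein phosphatase 2A, so that the only peak assigned to *Mcl1* was at the promoter of its neighbour. The nearest Novus peak was 224 kb upstream. A closer Santa Cruz peak was found for 52.4% of protein-coding genes, which puts *Mcl1* near the middle of all genes.

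The BH3-only genes differed most among themselves. *Bbc3*, which encodes PUMA, a target of p53 that mediates thymocyte death after DNA damage, had the most peaks of all members, with 7 Santa Cruz peaks and 1 Novus peak in a window of 109 kb. Of all protein-coding genes, 1.84% had as many Santa Cruz peaks. The gene lies at chr7:16894965-16903554 on the plus strand. One Santa Cruz peak, at chr7:16895180-16895366, was centred 308 bp downstream of its first start and reached from the first exon into the intron, and 7.39% of genes had a Santa Cruz peak closer to a start. The other 6 lay outside the gene.

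The common peak of *Bbc3* was 23.3 kb upstream of the start in the Novus list, at chr7:16871590-16871784, and overlapped the Santa Cruz peak at chr7:16871654-16871840 by 131 bp, with 60 bp between the centres. It was at the promoter of *Ccdc9*, 313 bp from that start. A further pair of Santa Cruz peaks flanked the start of *Prr24*, at chr7:16858687-16858873 (261 bp) and chr7:16859268-16859454 (320 bp), which lie 36.2 and 35.6 kb upstream of *Bbc3*. The remaining 3 were between genes 46.4 kb upstream (chr7:16848444-16848630, closest to the complement receptor gene *C5ar1*), between genes 14.6 kb upstream (chr7:16880293-16880479) and, 17.3 kb downstream, in an exon of *Sae1* (chr7:16912985-16913171), a subunit of the SUMO-activating enzyme. Of the 7, the start of *Bbc3* was the nearest protein-coding start for 2, the peak in the gene and the one in *Sae1*.

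*Bcl2l11*, which encodes BIM, the BH3-only protein required for negative selection, had 2 Santa Cruz peaks and no Novus peak. The closer of them, at chr2:127948389-127948575, was centred 3.29 kb upstream of the first start (the gene runs from 127951774 to 127988283 on the plus strand) and lay in an intron of the neighbouring gene *Acoxl*. Of all genes, 17.5% had a closer one. The second, at chr2:128034047-128034233, lay 45.9 kb beyond the 3′ end, within the annotated non-coding gene *Gm14005*. No other protein-coding gene started in the window of *Bcl2l11*, and both peaks were nearest to its own starts. The nearest Novus peak was 270 kb downstream.

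*Pmaip1*, which encodes NOXA, a BH3-only protein that binds MCL1 and is a p53 target, had no peak of either list. The nearest Santa Cruz peak was 91.8 kb upstream of its start on chromosome 18, and the nearest Novus peak 754 kb downstream. Of all protein-coding genes, 75.5% had a Santa Cruz peak closer than this and 84.5% a Novus peak. Its window, like that of *Bcl2l11*, contained no other protein-coding start, and these were the only 2 members of which this was true.

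Of the effectors, *Bax* had 1 Novus and 2 Santa Cruz peaks, none of them common, and *Bak1* had 2 Novus and 5 Santa Cruz peaks, including 2 common ones. *Bax* (chr7:52717065-52722268, minus strand) lies in a gene-dense stretch, and 8 other protein-coding genes started in its window. A Santa Cruz peak at chr7:52717008-52717194 covered the 3′ end of *Bax*, centred in its last exon, 5.04 kb from the closest *Bax* start and 1.85 kb from the start of *Ftl1*, the ferritin light chain gene. The second Santa Cruz peak, at chr7:52748849-52749035, was 26.7 kb upstream in an exon of *Nucb1* and closest to the start of *Dhdh*. The Novus peak at chr7:52690095-52690289 was 22 bp from the start of *Gys1*, encoding muscle glycogen synthase, inside the divergent *Ruvbl2*, 26.9 kb past the 3′ end of *Bax* and 32.0 kb from its closest start. The Santa Cruz peak nearest to it was the one at the 3′ end of *Bax*, 26.9 kb away.

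*Bak1* (chr17:27156755-27165954, minus strand) lies within the annotated span of *Ggnbp1*, a gene on the opposite strand. The first common peak was at the promoter of *Zbtb9*, where the Novus peak at chr17:27109890-27110084 was 125 bp and the Santa Cruz peak at chr17:27109954-27110140 65 bp from the start. They shared 131 bp. The second was in an intron of *Ggnbp1*, with the Novus peak at chr17:27118101-27118295 and the Santa Cruz peak at chr17:27118224-27118410. They shared 72 bp, with 119 bp between the centres, the smallest overlap among the 4 common peaks. Both sites were downstream of *Bak1*, at 49.7 and 41.5 kb from the closest of its starts.

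Closer to *Bak1* there were Santa Cruz peaks only. The closest was 4.00 kb upstream of the start, at chr17:27169864-27170050, and a Santa Cruz peak was closer than this for 18.8% of genes. The others were at chr17:27148863-27149049, 7.8 kb past the 3′ end, and at chr17:27177048-27177234, 11.2 kb upstream. None of the 5 was nearest to a *Bak1* start, because *Ggnbp1* or *Zbtb9* starts were closer. *Bak1* was the only member with more than 1 Novus peak, which 6.49% of protein-coding genes had. Without *Bak1* the members held 3 Novus peaks, 2 of them common.

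*Fas*, the death receptor gene, had 1 Novus and 4 Santa Cruz peaks around chr19:34365149-34402260 on the plus strand. One Santa Cruz peak, at chr19:34364972-34365158, was centred 84 bp upstream of its annotated start, the closest of any member, and 3.05% of protein-coding genes had one closer. The common peak lay between genes beyond the 3′ end, with the Novus peak at chr19:34408889-34409083 and the Santa Cruz peak at chr19:34408944-34409130. They shared 140 bp, the longest overlap among the members, and their centres were 51 bp apart. The Novus centre was 6.73 kb past the end of the gene, and the start of *Fas* was the nearest protein-coding start, at 43.8 kb. A further Santa Cruz peak lay 6.01 kb from the Novus centre, at chr19:34414905-34415091. The last, at chr19:34318883-34319069, was 46.2 kb upstream in an intron of *Acta2*, the smooth muscle actin gene. *Fas* was the only member of which a Novus peak had the member's own start as the nearest.

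*Gadd45b*, a stress-induced gene whose product binds the kinase MEKK4 and acts upstream of p38 and JNK, had no peak in its window on chromosome 10 (80392836 to 80394949, plus strand). The nearest Santa Cruz peak, at chr10:80486398-80486584, was 93.7 kb downstream of its start, and the nearest Novus peak was 395 kb upstream. Closer Santa Cruz peaks were found for 75.9% of protein-coding genes and closer Novus peaks for 71.8%. Among all genes the median distance from a start to the nearest peak was 30.6 kb for Santa Cruz and 167 kb for Novus, as the plot of nearest-peak distances shows.

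**Figure D2:**
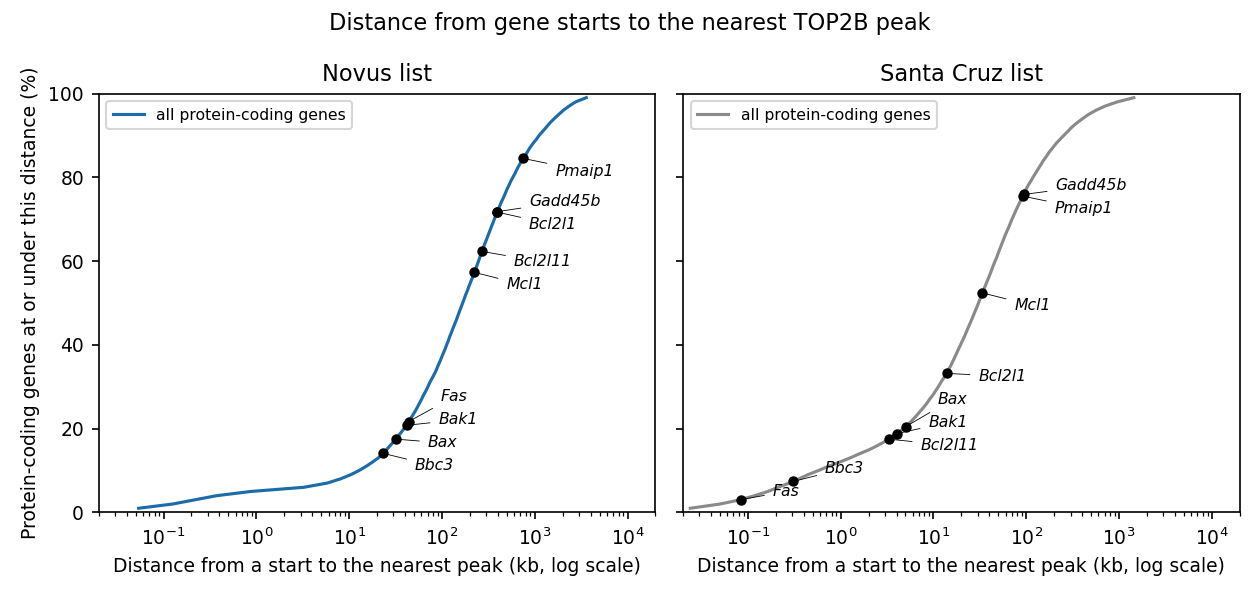
Percentage of protein-coding genes whose start has a peak at or under a given distance, in kb on a log axis, for the Novus list (left, blue line) and the Santa Cruz list (right, grey line), with the 9 members as black points. In the Santa Cruz list *Fas* and *Bbc3* lie lowest, at 0.084 and 0.308 kb, and *Pmaip1* and *Gadd45b* highest, at 91.8 and 93.7 kb; in the Novus list no member is closer than *Bbc3* at 23.3 kb.

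At the starts themselves, defined as within 1 kb of a start of a protein-coding transcript, peaks were few. A Santa Cruz peak was at a start of 2 of 9 members (22.2%), *Bbc3* and *Fas*, where the share over all protein-coding genes was 12.1%. A Novus peak was at a start of 0 of 9 members, beside 5.11% of all genes. Within 1 kb of the start of another gene lay 6 of the 26 Santa Cruz peaks and 3 of the 5 Novus peaks. Up to 8 other protein-coding genes started in a member's window. Inside a member gene lay the centres of 3 Santa Cruz peaks, in *Bcl2l1*, *Bbc3* and *Bax*, and of no Novus peak. Gene bodies were the smaller part of every window, and the share over all protein-coding genes is not given here. The start of a member was the nearest protein-coding start for 8 of the 26 Santa Cruz peaks and 1 of the 5 Novus peaks.

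Common peaks made up 4 of the 5 Novus peaks in the windows (80%, exact 95% interval 28.4 to 99.5) and 4 of the 26 Santa Cruz peaks (15.4%, 4.36 to 34.9). Over the whole lists, 27.9% of Novus and 5.65% of Santa Cruz peaks were common. The exact intervals cover counting error only, and 2 of the 4 common peaks come from the single window of *Bak1*. Of the 4 common peaks, 2 were at promoters, both of neighbouring genes (*Ccdc9* and *Zbtb9*). The promoter share over all common peaks is not given here, so this count has no background.

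The windows ranged from 102 to 164 kb, with a median over all protein-coding genes of 115 kb, and together covered 1075 kb. They held 2.42 Santa Cruz peaks per 100 kb, against 0.673 over chromosomes 1 to 19 and X, and 0.465 Novus peaks per 100 kb against 0.135. Those genome-wide densities include stretches without genes. Against the windows of all protein-coding genes, the members had a mean of 2.89 Santa Cruz peaks beside 1.66 and a mean of 0.556 Novus peaks beside 0.359, and their median was 2 Santa Cruz peaks beside 1 for all genes, whose quartiles were 0 and 3. The assigned peaks farthest from a gene were those at *Zbtb9*, 46.8 kb (Novus) and 46.7 kb (Santa Cruz) from *Bak1*. The closest peaks not assigned were a Santa Cruz peak 52.3 kb from *Bcl2l11* and a Novus peak 108 kb from *Bbc3*.

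Peaks were also counted after every peak of a list had been moved by the same distance, from 200 kb to 1 Mb in steps of 100 kb in both directions. The 18 shifts kept the spacing of the peaks and serve as a description, with no p-value. Steps of 100 kb are shorter than the windows of 102 to 164 kb, so neighbouring shifts cover partly the same stretches. The Santa Cruz count of 26 compares with a mean of 13.5 shifted peaks, the lowest shift giving 8 and the highest 25. The Novus count of 5 compares with a mean of 2.94, from 0 to 5, and was reached by shifted peaks at these distances, whereas shifts of 1 to 5 Mb gave 0 to 4. A Santa Cruz peak was present at 7 members as called and at a mean of 6.56 (4 to 9) after shifting, and a Novus peak at 4 against a mean of 2.17 (0 to 4). At starts, the Santa Cruz peaks of *Bbc3* and *Fas* compare with a mean of 0.389 shifted peaks, and the highest shift gave 2. Shifting takes peaks off gene starts, so this mean is no background for genes in general. The shifted window counts have the same limit, since the windows are drawn around genes. Of all protein-coding genes, 12.1% had a Santa Cruz peak at a start as called.

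**Figure D3:**
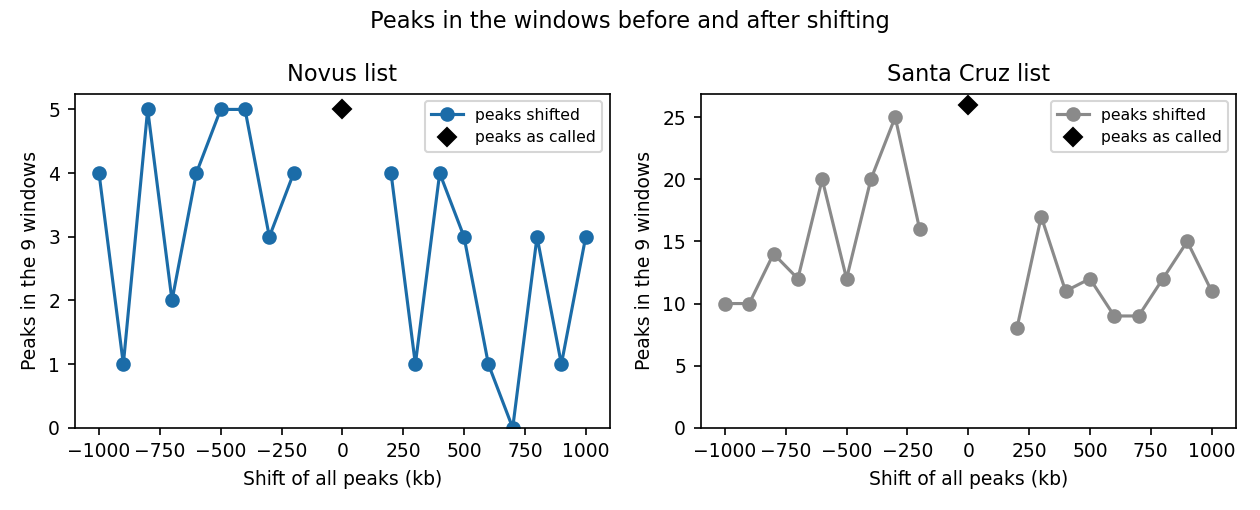
Number of peaks in the 9 windows after all peaks of a list were moved by the distance on the x axis (kb), for Novus (left, blue) and Santa Cruz (right, grey); the black diamond at 0 is the count as called. The Santa Cruz diamond at 26 is above all 18 shifts, of which the highest gave 25, and the Novus diamond at 5 is level with the highest shifts. Neighbouring shifts cover partly the same stretches.

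The difference from shifted peaks was carried by few members, as the plot of counts by member shows. *Bbc3* had 7 Santa Cruz peaks against a mean of 1 (0 to 4), *Bak1* 5 against 1.28 (0 to 3) and *Fas* 4 against 0.667 (0 to 3), each above its highest shift. *Bcl2l1* had 5 against 2.44, within its range of 0 to 7. *Bcl2l11*, with 2 against 1.94, *Bax*, with 2 against 1.56, and *Mcl1*, with 1 against 1.67, were close to their shifted means. *Pmaip1* and *Gadd45b* had 0 against means of 1.5 and 1.44, and shifts that gave 0 occurred at both. In the Novus list no member exceeded its highest shift, and *Bax*, *Bak1* and *Fas* equalled it. Without *Bbc3* the Santa Cruz count was 19.

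**Figure D4:**
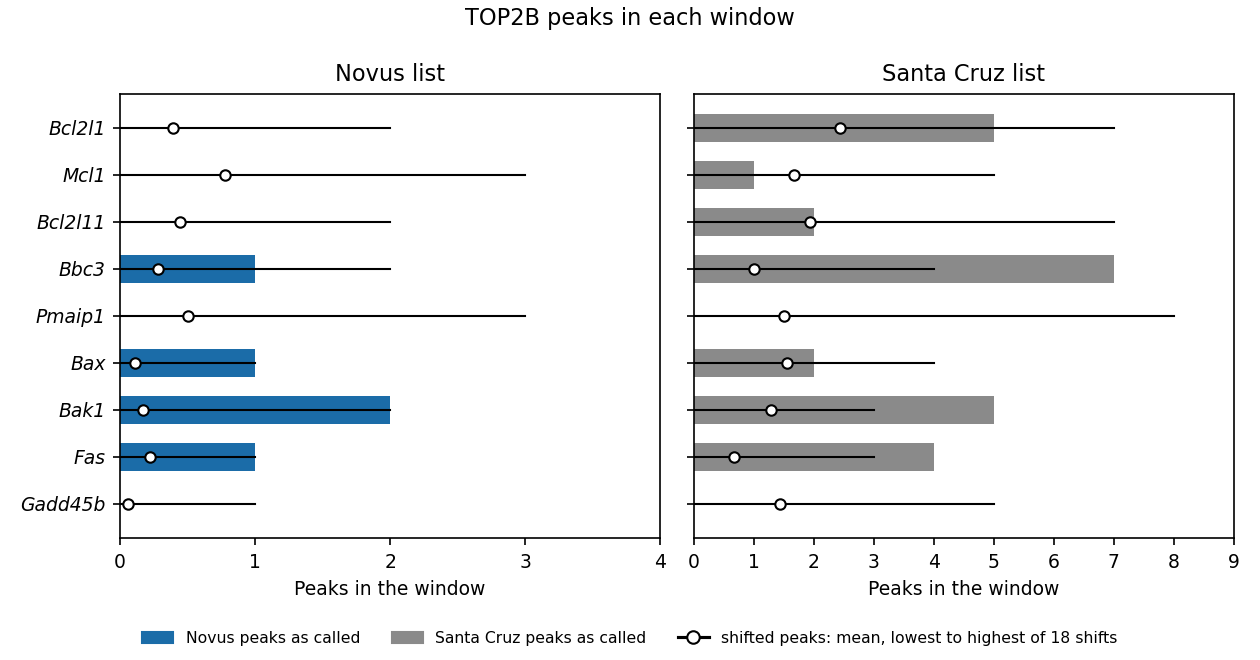
Peaks in the window of each gene in the Novus list (left, blue bars) and the Santa Cruz list (right, grey bars); open circles are the mean over 18 shifts and lines run from the lowest to the highest shift. The Santa Cruz bars of *Bbc3* (7), *Bak1* (5) and *Fas* (4) pass the ends of their lines, and the other bars do not.

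In the members' windows Santa Cruz peaks were 5.2 times as many as Novus peaks, and over the whole lists 4.98 times. Whether a member with Santa Cruz peaks only, such as *Bcl2l1*, differs from one with both in TOP2B binding or in what each antibody and library could detect was not tested, since the depth of the libraries cannot be read from the lists.

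By position, 8 of the 26 Santa Cruz peaks near the members were at promoters (30.8%, against 15.2% of the list), 3 in exons (11.5%, against 3.83%), 7 in introns (26.9%, against 38.9%) and 8 between genes (30.8%, against 42.1%), which means outside protein-coding genes and includes the peak in the non-coding *Gm14005*. Of the 5 Novus peaks, 3 were at promoters (60%, against 29.7%), 1 in an intron and 1 between genes. The windows were drawn around genes, whereas the lists also cover stretches without genes, so these shares do not compare like with like. Of the promoter peaks, 6 of the 8 Santa Cruz and all 3 Novus peaks were at promoters of other genes. The base composition of the peaks varied widely among the members. The Santa Cruz peaks had a median GC content of 53.7%, from 41.7% in the common peak of *Fas* to 70.1% in the common peak of *Bbc3*, and the list a median of 48.1% (quartiles 43.3 and 53.5). The Novus peaks had a median of 64.6%, from 42.6% to 67.7%, and their list a median of 51.8% (quartiles 46.7 and 58.5). The common peaks fell on either side: those at the *Ccdc9* and *Zbtb9* promoters were GC-rich and those beyond *Fas* and in *Ggnbp1* were not.

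Motifs were searched for up to 250 bp to either side of a peak centre, on both strands, and a match describes letters in this window and not a bound site. The CTCF core consensus, with up to 1 mismatch, had a match at 6 of 26 Santa Cruz peaks (23.1%, against 15.9% of all peaks of the list) and at 1 of 5 Novus peaks, where the share of the list was 25.6%. The match closest to a centre was in the common peak of *Fas*, 2 bp from the Novus centre and with 1 mismatch. That in the Santa Cruz peak 46.4 kb upstream of *Bbc3* was 11 bp from the centre, and that in the peak 4.00 kb upstream of *Bak1* 36 bp, both without a mismatch. The other 3 Santa Cruz matches, at the start of *Bbc3*, past the 3′ end of *Bcl2l1* and in *Acta2*, were 209 to 239 bp from the centre and lie outside the called interval. Of the 4 common peaks, that of *Fas* alone had a match, and the share over all common peaks is not given here.

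The GC box, GGGCGG, was added to the search after these sequences had been seen, so its shares are no independent result. It was found at 10 of 26 Santa Cruz peaks (38.5%, against 16.8% of the list) and at 3 of 5 Novus peaks (60%, against 30.5%). Several of these Santa Cruz peaks lay in the single window of *Bbc3*. The common peak of *Bbc3* shown above holds 3 copies of the GC box in the bases shared by both antibodies. The E-box CACGTG, bound by MYC and USF proteins, was found at 5 Santa Cruz peaks (19.2%, against 8.32%), 23 bp from the centre in the peak at the start of *Fas*, and at 1 Novus peak (20%, against 9.2%). The RUNX core TGTGGT, read by RUNX factors of the T-cell lineage, was found at 7 (26.9%, against 34.8%), 2 of them at *Fas*, and at 2 of 5 Novus peaks (40%, against 34.5%). The ETS core CCGGAA was found at 3 (11.5%, against 9.66%), at the *Ensa* and *Zbtb9* promoters and 14.6 kb upstream of *Bbc3*, and at 1 Novus peak (20%, against 15.6%). The NRF1 core TGCGCA was found at 0 of 26 Santa Cruz peaks (against 4.48%) and 0 of 5 Novus peaks (against 7.58%). CACGTG and TGCGCA read the same on both strands, and none of the spelled motifs contains another.

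A further 40 genes of the apoptosis pathway were counted in the same way. A Santa Cruz peak lay in the window of 30 (75%, where all genes gave 67.6%), a Novus peak in that of 18 (45%, 27.6% for all genes) and a common peak in that of 7 (17.5%, 9.25% for all genes), and 9 had no peak of either list. At a start, 6 had a Santa Cruz peak (15%, 12.1% for all genes) and 3 a Novus peak (7.5%, 5.11% for all genes). Neighbouring genes share windows and peaks: the windows held 73 distinct Santa Cruz and 22 distinct Novus peaks, and the 7 genes with a common peak held 6 distinct ones.

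None of the 9 members had a Novus peak at a start. *Apaf1*, the scaffold of the apoptosome, had a common peak 83 bp upstream of its start. *Birc3*, which encodes an inhibitor of apoptosis protein and ubiquitin ligase, had a common peak 229 bp from a start, which also fell in the window of the adjacent *Birc2*. *Cflar*, the inhibitor of caspase-8 activation at death receptors, had peaks of both lists at a start that did not overlap, at 89 bp downstream in the Novus list and 357 bp upstream in the Santa Cruz list. *Bcl2*, the founding survival gene of the family, had 9 Santa Cruz and 2 Novus peaks in the window of its long gene, with a common peak 26.0 kb from the start. The common peaks of *Cycs* (cytochrome c), *Birc5* (survivin) and *Mdm2* (the ubiquitin ligase of p53) were between 20.7 and 29.7 kb from the start. By group, common peaks were found at 5 of 12 genes of the apoptosome, caspases and inhibitors and at 1 of 6 anti-apoptotic genes. They were found at 1 of 8 genes of the p53 pathway and at 0 of 8 genes of death receptors, ligands and adaptors. Of the 6 BH3-only genes and effectors, 0 had one. Of the members, which these groups leave out, *Fas*, the BH3-only *Bbc3* and the effector *Bak1* had common peaks. The BH3-only *Bcl2l11* and *Pmaip1* and the effector *Bax* had none. The share over all protein-coding genes was 9.25%, and *Birc2* and *Birc3*, both among the 5, share 1 common peak. Santa Cruz peaks were found at 8 of 8 genes of death receptors, ligands and adaptors, at 9 of 12 of the apoptosome group, at 6 of 8 of the p53 pathway, at 5 of 6 BH3-only genes and effectors and at 2 of 6 anti-apoptotic genes, where 67.6% of all genes had one, and *Cflar* and *Casp8* share 1 of these peaks. Among the anti-apoptotic genes without a Santa Cruz peak, *Bcl2a1a*, *Bcl2a1b* and *Bcl2a1d* lie in the same stretch of chromosome 9 and are not unrelated loci. Of the relatives of *Gadd45b*, *Gadd45a* had a Santa Cruz peak 295 bp from its start and *Gadd45g* one at 1151 bp.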

How the data were processed

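The authors used Bowtie 1.2.0 to align ChIPmentation reads (build mm9) and HOMER's factor style to call peaks over the IgG library, for each library separately (deepTools is also named in the processing notes). The deposited lists hold positions: the Novus peaks are all 195 bp wide, the Santa Cruz peaks 187 bp, and the deposited score is 0 in every row. A stricter threshold could therefore not be applied, and the depth per library is unknown.

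Peak centres were compared with gene models of GENCODE M1 (same build) in Python 3.11.15 with numpy 2.4.6 and scipy 1.17.1. Windows reached 50 kb beyond each gene, promoters 1 kb around starts of protein-coding transcripts, and common peaks shared at least 1 bp. Backgrounds were the same counts over 22342 protein-coding genes on chromosomes 1 to 19 and X. The order in which a peak was given a feature was promoter, exon, intron, between genes. Peaks were shifted by 18 fixed distances. Sequences were read with pyfaidx 0.9.0.4, and figures drawn with matplotlib 3.10.9. Exact (Clopper-Pearson) 95% intervals cover counting error only. Overlap and motif searches were tested on simulated data.

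The 9 members and the lists of other genes and motifs were chosen with earlier results of these data known, and the GC box was added as a sixth motif after the sequences had been seen. Named were all members, each gene with the start nearest to a member's peak, the genes around those peaks (added when the peaks were seen) and those of the 40 other genes with a common peak or with peaks of both lists at a start, and *Gadd45a* and *Gadd45g*, which were chosen after their values were seen. *Casp8* and the *Bcl2a1* genes were named only for the peak or stretch they share, also after their values were seen. Alternatives were other windows, overlaps, start distances, shifts and motif settings. No p-values were computed, since each antibody had 1 library.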

Additional observations from a re-analysis of the deposited data

How the results depend on the processing

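Of 30 alternative values, 21 stayed within 1.5 times the reported one, but some of these could not have moved. The window decided the counts most. With 25 kb on both sides, 2 Novus and 15 Santa Cruz peaks were assigned to the members, and within the gene bodies 0 and 3. With 100 kb the Novus count was again 5 and the Santa Cruz count 46. Leaving out *Bak1*, the member with the most Novus peaks, gave 3 Novus peaks. Shifts of 1 to 5 Mb, which leave the members' surroundings, lowered the mean of shifted Novus peaks to 1.94, and the Santa Cruz mean was then 9.78. The CTCF core without a mismatch was found in 0 Novus peaks, and within 100 bp of the centre in 3 Santa Cruz peaks. An overlap of at least 50% of each peak left 3 of the 4 common peaks. Members with a peak at a start numbered 0 for Novus and 2 for Santa Cruz at 500 bp, at 2.5 kb and with the starts of all transcripts. The 2 distances could not change these counts. After *Fas* (0.084 kb) and *Bbc3* (0.308 kb), the next Santa Cruz peak was 3.29 kb from a start, and the closest Novus peak 23.3 kb. No paired analysis was possible because each antibody had 1 library and no result comes from a test. The lists do not give the depth, and a window without a peak does not show that TOP2B was absent there.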
